A study of Mus musculus with 12 samples.

Results

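The 3 libraries described here are the unstressed, receptor-intact controls of a mouse study with 12 libraries in 4 groups, and give the baseline transcriptome of cortical astrocytes at postnatal day 14. They are the 3 libraries titled Cre- control, picked out by that label. Every one of the 45777 genes in the deposited gene table was described in them. Their donors carried flox/flox alleles of Nr3c1, the glucocorticoid receptor gene, without the Aldh1l1-CreERT2 transgene, and were not separated from the dam. They received 4-hydroxytamoxifen from postnatal day 5 to 7, as did all 4 groups, so that no group was free of the drug. In the labels' genotype field the receptor gene is written as Nr3c1, Nr3c2 or Nr3c3 by replicate, so groups were taken from the titles. The astrocytes came from cortex and were purified by immunopanning and Miltenyi beads, and polyadenylated RNA was sequenced. Nothing in the labels says whether the 3 libraries came from separate animals, so that the SDs below measure the spread between these libraries, which may be technical.

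Astrocytes are the glial cells that take up glutamate and potassium around synapses, couple to one another through gap junctions, contact blood vessels with their endfeet, and supply neurons with lactate, glutamine and cholesterol-bearing lipoproteins. In the second postnatal week cortical astrocytes have largely stopped dividing and are maturing, and synapses form and are pruned around them. The glucocorticoid receptor is a ligand-activated transcription factor that these cells carry and that responds to stress hormones.

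Levels are given in TPM, a unit that corrects for gene length and sums to the same total in each library, so that genes can be compared with one another within a library. Values are written in the order library 1, library 2, library 3, and errors are SD with n = 3. The libraries held 4.36e+07, 4.37e+07 and 4.26e+07 counts. A count of 0 allowed a level of up to 0.0704 CPM (counts scaled to library size) in the shallowest library, from 3 counts of its total, a limit that covers counting error only. There is 1 group and no contrast, so every statement below is a description without a test. A gene was taken as present at 1 TPM or more in every one of the 3 libraries, which held for 15097 genes, 33.0% of those listed. Among protein-coding genes 13169 of 21949 passed (60.0%), and among long non-coding RNA genes 874 of 12570 (6.95%). Counts of present genes in the lists and families below are to be read beside the 60.0% of protein-coding genes.

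The identity markers of astrocytes were all present and nearly all abundant. Slc1a2, the glutamate transporter GLT-1, stood at 4850, 6352 and 6715 TPM (mean 5972 ± 988). Slc1a3, the glutamate transporter GLAST, stood at 5235, 6413 and 5537 TPM (mean 5728 ± 612). The pair ranked 15 and 17 among all genes, and their order did not hold against the spread, with Slc1a2 above Slc1a3 in 1 of 3 libraries and a mean log2 ratio of 0.05 ± 0.20. Aldoc, the brain aldolase of glycolysis, was at 2612, 3590 and 4005 TPM, lowest in library 1. Gja1, which encodes the gap junction protein connexin 43, was at 2761, 3116 and 2625 TPM, and the order of Aldoc and Gja1 was also within the spread. Aqp4, the water channel of the endfeet, was at 1133, 977 and 789 TPM, highest in library 1. Aldh1l1, a folate enzyme whose promoter drives the study's Cre line, was the lowest of the 6 at 371, 443 and 426 TPM (mean 413 ± 37.8), 2.32-fold below Aqp4. Together the 6 took 1.93 ± 0.208% of all TPM. A further 29 astrocyte genes were also all present, from Chrdl1 at 158 TPM to Apoe at 12008.5 TPM, and took 7.25 ± 0.483%.

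Markers of other cell types were lower in sum, and they were not equal in the 3 libraries. The 98 markers of 8 other cell classes, of which 78 were present, together took 0.800 ± 0.322% of TPM, and their summed level was 11260, 4829 and 7921 TPM. Neurons were the lowest class. Their 18 markers summed to 167, 161 and 174 TPM, and Map2 alone, at 113 TPM, made up most of that. Snap25, a synaptic vesicle fusion protein, was at 6.66 TPM, Syt1 at 2.61 TPM and Rbfox3, the neuronal nuclear antigen, at 0.907 TPM. Oligodendrocyte markers summed to 291, 316 and 314 TPM, nearly all of it Cnp at 258 TPM, while the myelin gene Mbp was at 17.4 TPM and Opalin had 0 counts in every library. The 10 genes of oligodendrocyte precursors, 9 of them present, summed to 342, 247 and 299 TPM. Olig1 was highest at 138 TPM, and Cspg4 and Olig2 came next. The mean log2 ratio was 0.77 ± 0.56 for Olig1 over Cspg4 and 0.99 ± 0.45 for Cspg4 over Olig2. Pdgfra, the receptor that defines these cells, was below them at 9.66 TPM. The defining markers of neurons and oligodendrocytes were thus low but mostly not at 0.

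Vascular and immune markers were higher, and the endothelial, microglial and erythroid lists shared 1 order of the libraries. Endothelial markers summed to 2344, 433 and 849 TPM, and all 12 were highest in library 1 and lowest in library 2. Cldn5, the tight junction protein of the blood-brain barrier, was at 508, 88.4 and 166 TPM. Markers of microglia and macrophages summed to 1602, 524 and 763 TPM, again with 18 of 18 highest in library 1 and lowest in library 2. Csf1r, the receptor that microglia need to survive, was at 223, 66.7 and 96.6 TPM. Globin and other erythroid genes followed the same order at 1061, 482 and 575 TPM, though Hba-a1 and Hba-a2 are near-identical copies whose separate values are uncertain. Markers of mural cells and fibroblasts summed to 5154, 2364 and 4743 TPM, the most of these classes, and were lowest in library 2. Of these 13 genes, 8 were both highest in library 1 and lowest in library 2. Their median of 85.6 TPM was near the endothelial 82.2 TPM, and 2 of the 13 had a mean of at least 1000 TPM. Rgs5, a pericyte gene, was at 2339, 1005 and 2211 TPM. For comparison, 50.4% of all 10451 genes with a mean of at least 10 TPM were highest in library 1, and 4531 were lowest in library 2. In bulk RNA a larger number of cells of a type and more RNA per cell cannot be told apart.

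**Figure D1:**
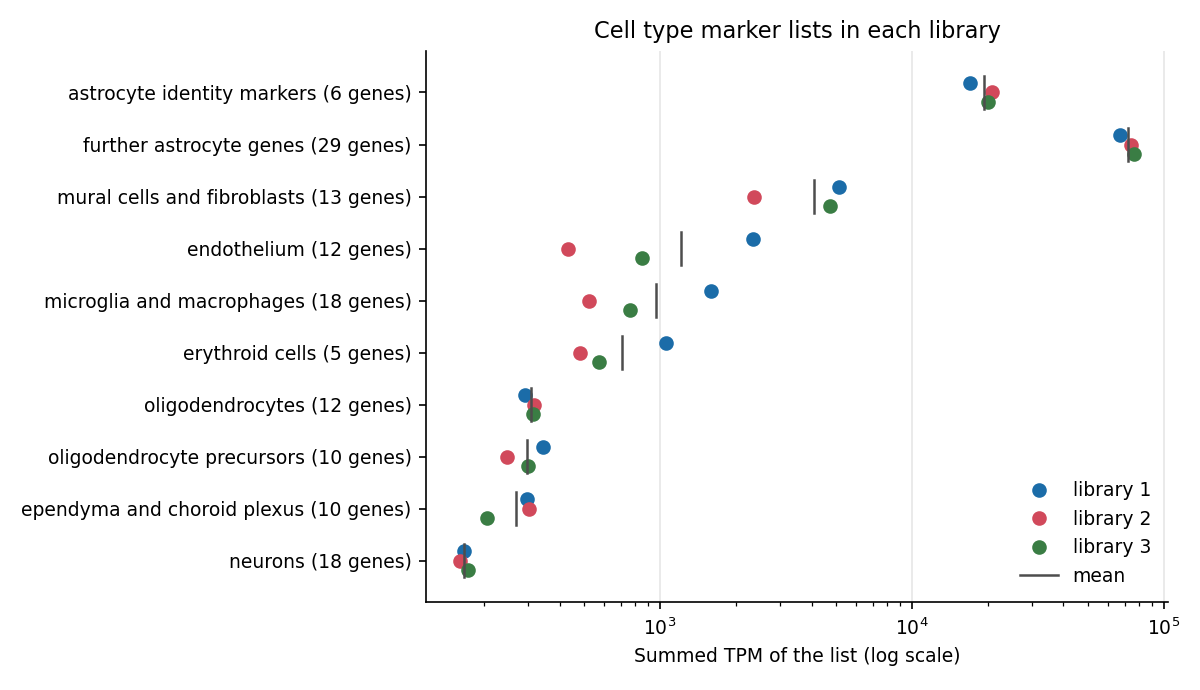
Summed TPM of each cell type marker list (log axis) in the 3 Cre- control libraries, with 1 point per library and a vertical line at the mean. The astrocyte lists lie to the right at 16962 TPM or more, neuronal markers lie at 161 to 174 TPM, and the endothelial, microglial and erythroid lists are highest in library 1 and lowest in library 2.

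Among transcription factors that pattern the brain, those of the telencephalon were present and those of other regions mostly were not. Of 12 telencephalic factors 10 were present. Lhx2, a regulator of cortical identity, stood at 217 TPM and Nr2f1 at 135 TPM. Emx2, at 45.3, 45.4 and 53.7 TPM, exceeded its paralogue Emx1 16.1-fold (log2 ratio 4.00 ± 0.18). Of 18 factors of ventral or caudal regions only 4 passed the threshold, the highest being Nkx2-2 at 10.3 TPM, and 7 had 0 counts. None of 39 Hox genes, which mark hindbrain and spinal cord, was present. Of those, 35 had 0 counts in all libraries, and the whole family summed to 0.167 TPM.

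The most abundant genes were mitochondrial transcripts and products of the astrocyte's own lists. The 8 most abundant genes held 10% of all TPM, 48 held 25%, and 603 held 50%. The 40 highest held 23.6% and comprised 11 mitochondrially encoded mRNAs, 15 genes of the astrocyte lists and 14 others, with 0 markers of other cell types. That count rests on library 2: Rgs5, a pericyte marker ranked 44 by mean TPM, ranked 30 and 36 in libraries 1 and 3 and 78 in library 2. COX1, a subunit of cytochrome oxidase, led at 21628, 30353 and 25838 TPM. Cst3, the secreted protease inhibitor cystatin C, was at 7450, 12609 and 11413 TPM and ranked 6. Cpe, which trims prohormones, had a mean of 9050.5 TPM, and Sparcl1, the synaptogenic protein hevin, 8291, 9070 and 8006 TPM. Glul, glutamine synthetase, was at 5973, 6923 and 8169 TPM, and Clu, the lipoprotein clusterin, at 5778, 6928 and 6286 TPM. Cst3, Cpe, Glul and Clu were lowest in library 1, and Sparcl1 was lowest in library 3. Further down were Ptn, the growth factor pleiotrophin, at 4364 TPM, Tspan7 at 3897 TPM and Atp1b2, a sodium pump subunit, at 3634 TPM. Fos, an immediate early transcription factor, was also among the 40, at 1555, 1877 and 2725 TPM.

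**Figure D2:**
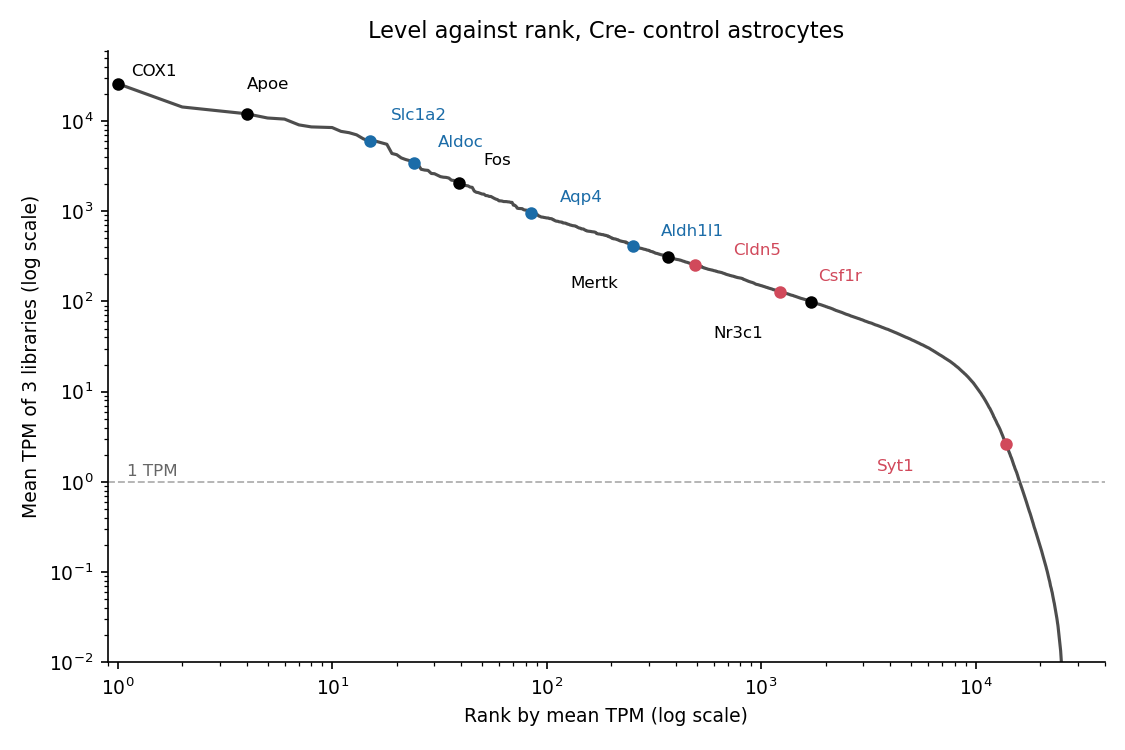
Mean TPM of each gene (log axis) against its rank (log axis) in the Cre- control libraries, with blue points for astrocyte identity markers, red for markers of other cells and black for other genes. The curve runs from COX1 at 25940 TPM through Slc1a2 and Aldoc among the 40 highest to Syt1 at 2.61 TPM, and the dashed line marks 1 TPM.

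Glutamate handling was carried by a few very abundant genes. All 15 of its genes were present, in a sum of 18637, 22292 and 22889 TPM. After Glul and the 2 transporters came Glud1, glutamate dehydrogenase, at 1280 TPM, and Slc38a3, a glutamine transporter, at 650 TPM. Slc7a11, the cystine-glutamate exchanger, was at 210 TPM. For GABA, the transporter Slc6a11 (GAT-3) stood at 1247, 1680 and 1238 TPM (mean 1388 ± 252), highest in library 2. All 12 genes for GABA and glycine handling were present.

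Genes for ion and water homeostasis were unequal among paralogues. Atp1b2, the glial sodium pump beta subunit, at 3634 ± 187 TPM, exceeded Atp1b1 10.7-fold. Kcnj10, the Kir4.1 potassium channel, was at 400.5 ± 8.88 TPM and 3.04-fold above Kcnj16. Among connexins, Gja1 exceeded Gjb6, connexin 30, 4.83-fold (591 TPM). Over the whole class, 17 of 18 transport genes and 9 of 12 junction and hemichannel genes were present.

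Receptor levels ranged widely. Of 31 neurotransmitter and peptide receptors 27 were present. Gpr37l1, a G protein-coupled receptor enriched in glia, led at 1714, 2133 and 2059 TPM, and S1pr1, the sphingosine-1-phosphate receptor, followed at 1446, 1457 and 1464 TPM. Ntsr2 was at 1302 TPM and Ednrb, the endothelin receptor, at 845 TPM. Grm3 (505 ± 16.6 TPM) exceeded Grm5, the group I receptor prominent in young astrocytes, 74.9-fold. Adra1a and Adra1b, which carry noradrenaline signals, were within the spread of each other. At the other end Htr1a was at 0.0143 TPM and Tacr1 at 0.0357 TPM. Of growth factor receptors, Ntrk2 stood at 1254 TPM and Fgfr3 at 1024 TPM, 6.94-fold above Fgfr2.

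Nuclear receptors were led by Nr4a1, itself an immediate early gene, at 549 TPM. Nr3c1, the gene the study deletes in other groups, was at 102, 91.5 and 105 TPM (mean 99.4 ± 7.08). It exceeded Nr3c2, the mineralocorticoid receptor, 5.50-fold (log2 ratio 2.46 ± 0.07, the same order in 3 of 3 libraries). Thra exceeded Thrb 11.0-fold. Esr1 and Vdr were at 0.152 and 0.111 TPM. Of 20 genes known to respond to glucocorticoids 19 were present, but at very unequal levels. Mt1 was at 1293, 2067 and 2154 TPM, Tsc22d3 (GILZ) at 190 TPM and Klf9 at 175.5 TPM, whereas Fkbp5, a chaperone partner of the receptor, was at 5.86 TPM and Zbtb16 at 4.47 TPM. Glial lineage factors were steady: 30 of 31 were present, led by Id2 (702 ± 17.3 TPM) and Id3 (560 ± 13.7 TPM), with Sox2 at 245.5 and Sox9 at 174 TPM.

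Immediate early genes were high in all 3 libraries. All 3 are of purified cells, so the levels of these and of heat shock genes in the cortex before purification were not measured. All 19 were present, in a sum of 6948, 6444 and 9657 TPM, and 13 were highest in library 3, against 24.2% of all genes with a mean of at least 10 TPM. After Fos came Jun at 686, 650 and 990 TPM, Egr1 at 560, 659 and 952 TPM and Junb at 701, 548 and 783 TPM. Arc and Egr3, which neurons induce with activity, were at 21.9 and 13.5 TPM. The class median was 237 TPM. Heat shock genes were present in 21 of 21 cases, with Hspa8, a constitutive member, at 1486 TPM. The inducible copies Hspa1a and Hspa1b, whose sequences are near-identical and whose split is uncertain, were at 351 and 358 TPM.

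Nearly every gene listed for energy metabolism was present. Of 22 glycolysis and lactate genes 21 were present. Aldoc exceeded Aldoa 4.40-fold (log2 ratio 2.14 ± 0.34), Ldhb exceeded Ldha 2.92-fold, and Pfkm exceeded Pfkl 6.91-fold. Between libraries these ratios ran from 3.35 to 5.17, from 1.89 to 3.87 and from 4.84 to 8.28. Slc2a1, a glucose transporter that endothelium also carries, was at 610, 271 and 336 TPM and was highest in library 1, as the endothelial markers were. Of the 22 genes, 13 were highest in library 1 and lowest in library 2. Among all 10451 genes with a mean of at least 10 TPM, 50.4% were highest in library 1 and 4531 were lowest in library 2. Pygb, a glycogen phosphorylase, was at 632 TPM and 5.60-fold above Pygm. All 22 citric acid cycle genes were present, from Dlat at 40.6 to Cs at 494 TPM, as were 23 of 23 nuclear subunits of oxidative phosphorylation. The 13 mitochondrially encoded mRNAs took 11.3 ± 1.76% of TPM and all were highest in library 2, while 18 of the 23 nuclear subunits were highest in library 3. Of all genes with a mean of at least 10 TPM, 25.4% were highest in library 2 and 24.2% in library 3. ATP6 and ATP8, and ND4 and ND4L, overlap on the mitochondrial genome, so their separate values are uncertain. All 21 genes of fatty acid oxidation were present as well, led by the acyl-CoA synthetases Acsbg1 (930 TPM) and Acsl3 (656 TPM).

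Lipid synthesis genes spanned 5.87 to 2620 TPM for fatty acid synthesis and elongation and 13.7 to 1074 TPM for cholesterol synthesis. All 22 cholesterol synthesis genes were present. Msmo1, a sterol methyl oxidase, stood at 1010, 1118 and 1093 TPM, and Hmgcs1, which makes HMG-CoA, at 701, 715 and 811 TPM. The class summed to 4766, 4965 and 5040 TPM. Its median CV in TPM was 6.02%, against 9.55% for all genes with a mean of at least 10 TPM. The gap was smaller in counts scaled by the TMM factors of edgeR, at 8.01% against 9.26%. For fatty acids, Scd2 (2620 TPM) exceeded Scd1 9.97-fold. Fabp7, a carrier typical of immature glia, was at 1306, 1019 and 914 TPM.

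Several defence and clearance genes were at high levels. Mt1, Mt2 and Mt3, small metal-binding proteins, had means of 1838, 1302 and 1253 TPM, each lowest in library 1 and highest in library 3. Mt2 and Mt3 were within the spread of each other. Prdx6 led the 24 antioxidant genes, all present, at 947 TPM. All 24 lysosomal genes were present, with Psap at 2369 and Lamp1 at 1270 TPM. Of 22 engulfment genes 21 were present. The bridging protein Mfge8 was at 2192 TPM, Mertk at 290, 318 and 329 TPM and Axl at 229, 271 and 289 TPM. Mertk exceeded Axl 1.19-fold in 3 of 3 libraries (log2 ratio 0.25 ± 0.08) and Tyro3 20.5-fold.

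Genes of the reactive state ran from 0.334 to 1278 TPM. Of 29, 25 were present, and 2 had a mean of at least 100 TPM. The class median was 23.2 TPM and the median rank among all genes 7276. Gfap, the astrocyte intermediate filament, was at 1404, 1370 and 1059 TPM, and 3.19-fold above Vim. Serpina3n was at 64.7 TPM, Lcn2 at 2.49 TPM and C3, of the complement list, at 0.913 TPM. Interferon-stimulated genes had a median of 9.36 TPM, led by Ifi27 at 55.7 TPM. Vim, at 530, 339 and 350 TPM, and 20 of the 27 reactive genes with a mean of at least 1 TPM were highest in library 1, the library with the most endothelial and microglial signal; the part of those cells in this was not tested. Cell cycle genes, 26 of 26 present, had a median of 11.3 TPM. Of these, 24 were both highest in library 1 and lowest in library 2, the order of the endothelial and microglial lists. Among all 10451 genes with a mean of at least 10 TPM, 50.4% were highest in library 1 and 4531 were lowest in library 2. The share of all genes with both was not counted. Cdk1 was at 4.32 TPM.

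Secreted and surface proteins included many that act on synapses. All 22 synapse-regulating factors were present: Sparcl1, Ptn, the proteoglycan Bcan at 2383 TPM and Sparc, an antagonist of hevin, at 1492 TPM. Sparcl1 exceeded Sparc 5.73-fold. Of the thrombospondins in this list, Thbs4 was the highest and was among the 9 of 22 factors with a mean of at least 100 TPM. Thbs1 and Thbs2 were at 18.6 and 10.7 TPM. Hepacam, a partner of connexin 43 at cell contacts, was at 789 TPM, Pcdhgc3, the highest clustered protocadherin, at 765 TPM and Ncam1 at 600 TPM. Col4a1, a basement membrane collagen, was at 905, 298 and 574 TPM, highest in library 1 and lowest in library 2. Acan, the proteoglycan of perineuronal nets, was at 0.315 TPM.

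**Figure D3:**
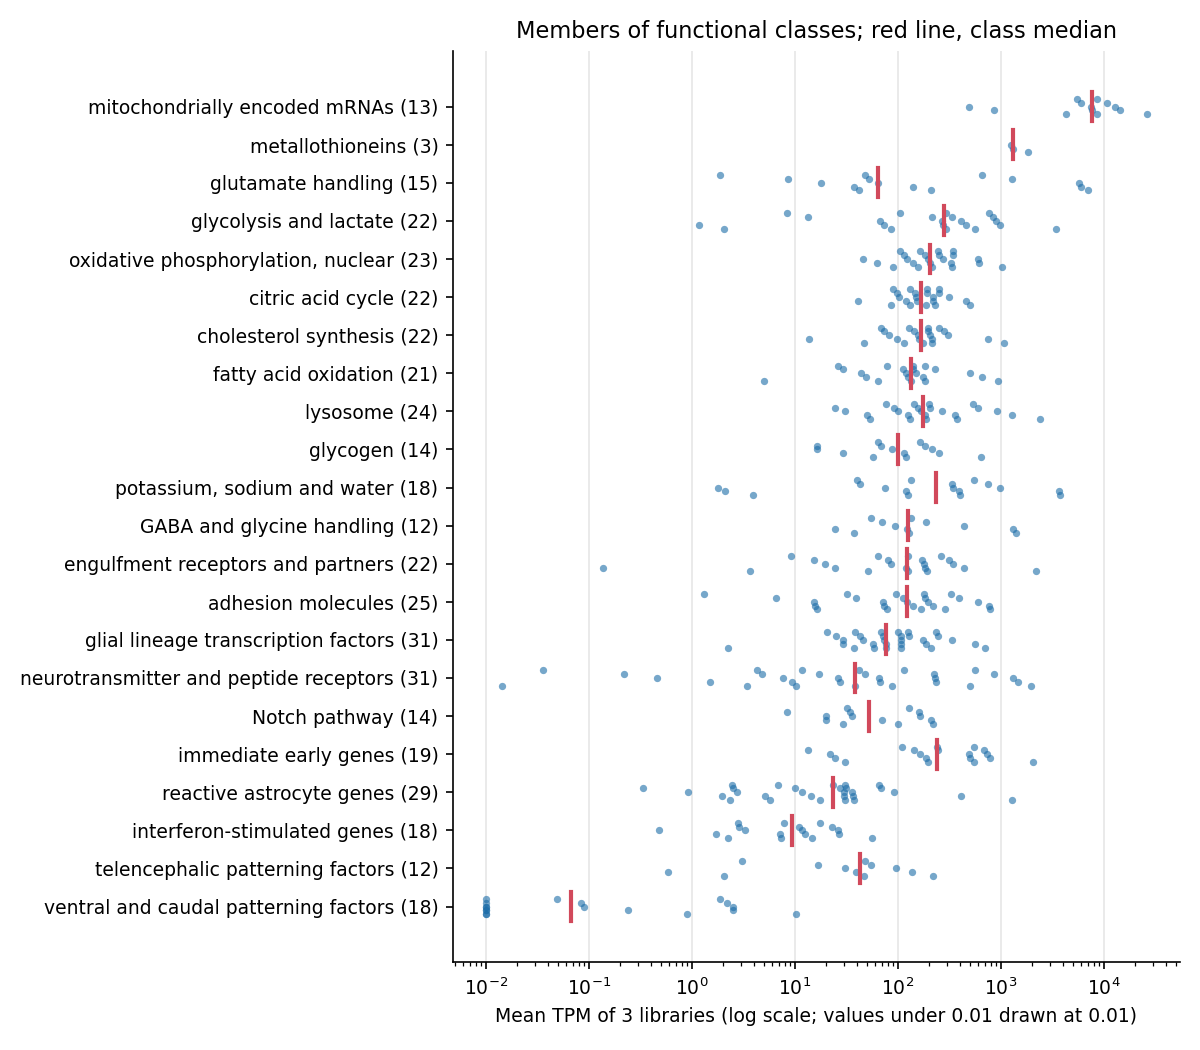
Mean TPM of every member (blue points, log axis) of 22 functional classes, with the class median in red and the number of genes in brackets. Mitochondrially encoded mRNAs lie highest, with a median of 7671 TPM, most metabolic classes have medians between 100 and 300 TPM, and the ventral and caudal patterning factors lie lowest.

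Symbol families gave the reach of the transcriptome. Of 92 cytosolic ribosomal protein genes 88 were present, and they took 2.48 ± 0.285% of TPM. Their sum was 27709, 22003 and 24730 TPM, the order of the endothelial and microglial lists. Of the 88, 77 were highest in library 1 and 82 were lowest in library 2. Among all 10451 genes with a mean of at least 10 TPM, 50.4% were highest in library 1 and 4531 were lowest in library 2. Among 396 solute carriers 248 were present (62.6%), close to the 60.0% of all protein-coding genes, and 41 had a mean of at least 100 TPM. The family took 3.32 ± 0.0888% of TPM, and 59 members had 0 counts. Families of other tissues were nearly silent. Of 1145 olfactory receptor genes 4 were present and 1101 had 0 counts, with Olfr287 highest at 10.2 TPM. Of 55 keratins 1 was present, and of 330 vomeronasal receptors 3.

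Promoter sequence differed with level. For 14753 protein-coding genes with 1 start listed by RefSeq (GRCm38.p6, the assembly of mm10), the 300 bases from 250 before to 50 after the start were searched on both strands for the TATA box (spelled TATAAA), the GC box (spelled GGGCGG) and the CCAAT box (spelled CCAAT). The CpG ratio, observed over expected, was taken as well. GGGCGG was found in 45.3% of all these promoters, in 70.5% at 100 to 1000 TPM and in 11.3% under 0.1 TPM. The 45 genes at 1000 TPM or more did not continue this order: 60.0% held GGGCGG, 15.6% held TATAAA and their median CpG ratio was 0.702. The median CpG ratio was 0.812 at 100 to 1000 TPM and 0.164 under 0.1 TPM, against 0.561 for all. TATAAA was most frequent under 0.1 TPM, at 27.4%, and least frequent at 10 to 100 TPM, at 5.79%. CCAAT differed little, between 36.7% and 43.2%. Of these genes 62.3% have the listed start at the outer edge of the gene, and within those 9195 genes GGGCGG was found in 71.1% at 100 to 1000 TPM and in 9.56% under 0.1 TPM.

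The astrocyte and cholesterol lists differed in these features. The 19 further astrocyte genes with 1 listed start had a median CpG ratio of 0.321, and 7 of them (36.8%) held GGGCGG. The 14 cholesterol synthesis genes had a median ratio of 0.820, all 14 held GGGCGG and 13 of 14 held CCAAT (92.9%, against 39.6% of all promoters). The cholesterol list was singled out after these counts were seen, among 11 lists examined, and all 12 chaperone promoters held GGGCGG too. The 250 bases before the start are shown for 4 of the 40 most abundant genes (Cst3, Slc1a3, Gja1 and Fos) and for the 2 highest cholesterol genes, whose listed start is in each case the outer edge of the gene. Capitals mark the TATA, GC and CCAAT boxes on either strand, and the last base lies next to the start.
Cst3 (chr2:148875513-148875762, minus strand): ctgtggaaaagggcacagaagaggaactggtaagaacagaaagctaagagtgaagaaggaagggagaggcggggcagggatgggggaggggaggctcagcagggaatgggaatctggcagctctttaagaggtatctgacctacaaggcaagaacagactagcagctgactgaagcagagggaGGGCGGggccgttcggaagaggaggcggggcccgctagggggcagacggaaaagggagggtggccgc
Slc1a3 (chr15:8710808-8711057, minus strand): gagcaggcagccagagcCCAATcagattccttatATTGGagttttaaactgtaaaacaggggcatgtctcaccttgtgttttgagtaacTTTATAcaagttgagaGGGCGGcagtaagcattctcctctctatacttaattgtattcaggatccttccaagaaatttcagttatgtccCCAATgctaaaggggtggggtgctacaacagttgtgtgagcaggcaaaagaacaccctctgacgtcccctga
Gja1 (chr10:56377050-56377299, plus strand): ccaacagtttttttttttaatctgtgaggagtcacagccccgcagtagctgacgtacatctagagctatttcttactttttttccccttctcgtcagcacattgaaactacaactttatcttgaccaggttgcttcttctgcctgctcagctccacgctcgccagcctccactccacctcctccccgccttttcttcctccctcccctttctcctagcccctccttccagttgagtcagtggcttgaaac
Fos (chr12:85473640-85473889, plus strand): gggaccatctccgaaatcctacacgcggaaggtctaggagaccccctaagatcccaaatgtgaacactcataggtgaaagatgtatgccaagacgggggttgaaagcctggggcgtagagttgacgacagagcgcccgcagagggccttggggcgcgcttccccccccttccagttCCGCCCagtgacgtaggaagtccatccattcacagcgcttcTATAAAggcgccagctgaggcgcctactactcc
Msmo1 (chr8:64733579-64733828, minus strand): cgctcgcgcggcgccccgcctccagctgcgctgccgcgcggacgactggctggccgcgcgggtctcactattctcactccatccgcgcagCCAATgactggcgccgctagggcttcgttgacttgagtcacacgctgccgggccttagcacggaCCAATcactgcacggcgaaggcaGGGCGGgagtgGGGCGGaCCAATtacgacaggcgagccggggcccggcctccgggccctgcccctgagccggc
Hmgcs1 (chr13:119690101-119690350, plus strand): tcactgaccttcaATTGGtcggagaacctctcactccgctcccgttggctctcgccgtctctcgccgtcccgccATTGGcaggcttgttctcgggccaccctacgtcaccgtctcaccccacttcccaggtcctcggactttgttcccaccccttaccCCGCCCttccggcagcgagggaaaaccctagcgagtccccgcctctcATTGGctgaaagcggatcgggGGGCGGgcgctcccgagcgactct

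Msmo1 and Hmgcs1 each held 2 GC boxes and 3 CCAAT boxes in these 250 bases, with 32 and 23 CpG pairs; this pair was chosen after the motif counts were seen. Slc1a3 likewise held 3 CCAAT boxes, with 1 GC box, and differed from them in its 2 CpG pairs and 44.8% G or C. Cst3 held 1 GC box and 8 CpG pairs, Fos 1 GC box and 1 TATA box with 15 CpG pairs, and Gja1 none of the 3 motifs and 6 CpG pairs. In Slc1a3 the TATAAA match lay 161 bases before the start and on the other strand. Fos held TATAAA on its own strand 33 bases before the start, and a match between 40 and 20 bases before the start was found in 3.13% of all promoters. A match is a run of letters and no evidence of a bound factor.

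Spread between libraries was small for most genes. Over 16056 genes with a mean of at least 1 TPM, the correlation of log2 values across genes, which are not independent replicates, was 0.966 for libraries 1 and 2, 0.978 for 1 and 3 and 0.984 for 2 and 3. The median CV was 12.6% for these genes and 9.55% for the 10451 genes with a mean of at least 10 TPM. Of the latter, 52.8% had a CV under 10% and 11.3% a CV of 25% or more. Counting alone would give a median CV of 2.41% at that level. The steadiest genes at 100 TPM or more included Kif1c, a kinesin, at 128, 127 and 127 TPM, and S1pr1 with a CV of 0.636%. With 3 libraries, the ranking of such small CVs is itself imprecise.

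The most variable genes shared one pattern. Of 326 genes with a CV of 50% or more, 309 were highest in library 1 and 298 were lowest in library 2. Of all 10451 genes, 50.4% were highest in library 1 and 4531 were lowest in library 2. Fbln5, an elastic fibre protein, was at 56.0, 7.89 and 5.61 TPM. Aplnr, the apelin receptor of vessels, was at 68.1, 6.42 and 10.1 TPM. Kdr, the VEGF receptor of endothelium, was at 165, 22.7 and 37.5 TPM and Pecam1, an endothelial adhesion molecule, at 139, 18.4 and 37.2 TPM. All 12 genes of the endothelial list were among the 200 most variable genes. The common biological coefficient of variation, fitted with edgeR over 17131 genes, was 22.3%, and it was 16.5% without library 1, 21.1% without library 2 and 26.9% without library 3. The part of endothelial and microglial RNA in this was not tested.

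**Figure D4:**
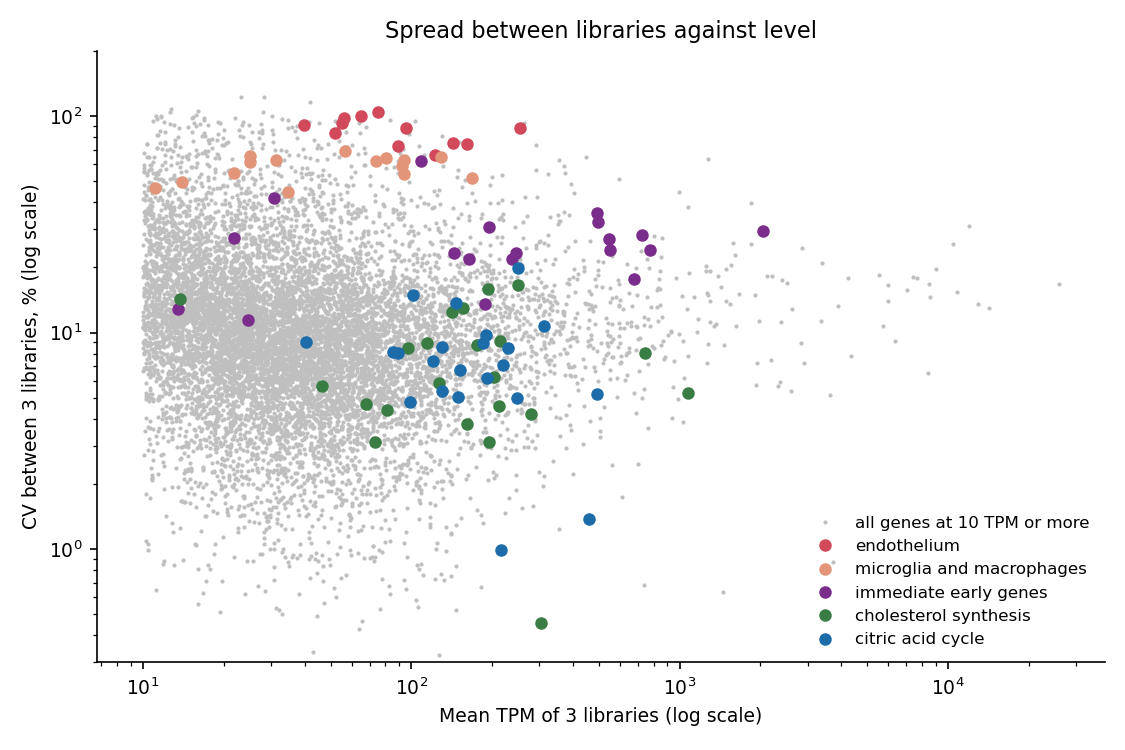
CV between the 3 libraries (log axis) against mean TPM (log axis) for genes with a mean of at least 10 TPM (grey), with 5 lists in colour. All 12 endothelial genes lie near the upper edge with a median CV of 87.8%, and microglial genes lie just below. Immediate early genes have a median of 24.1%, and cholesterol and citric acid cycle genes lie lower, at 6.02% and 7.69% in TPM. In TMM-scaled counts these 2 medians were 8.01% and 9.11%, against 9.26% for all genes shown.

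For Apoe, the main apolipoprotein of astrocytes, the order of the libraries turned with the unit. In TPM it was at 13306, 7810.5 and 14908.5, lowest in library 2. In CPM it was at 5864, 7939 and 6719, highest in library 2. In libraries 1 and 3 the deposited transcript table put 98.7% and 97.7% of the gene's TPM on a transcript of 1273 bases, and in library 2 it put 94.6% on a predicted transcript of 3010 bases. The mean transcript length, weighted by TPM, was therefore 1284, 2916 and 1291 bases. Of 1707 genes with a mean of at least 100 TPM, 14 had their highest library by TPM as the lowest by CPM or the reverse, and of these Apoe alone had a CV of 25% or more. A mean transcript length that differed 1.5 times or more between libraries was found in 3 of 1105 genes at 100 TPM or more with several transcripts. The rank of Apoe, 4 by mean TPM, therefore rests on this assignment.

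**Figure D5:**
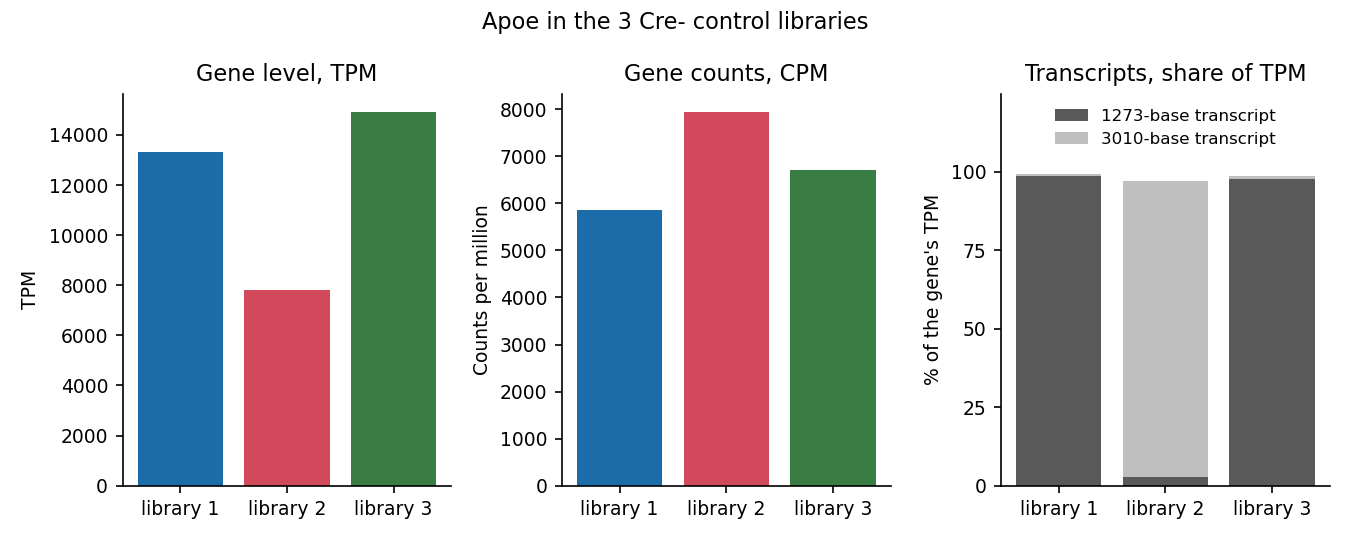
Apoe in each Cre- control library as gene TPM (left), CPM (centre) and share of the gene's TPM on its 2 main transcripts (right). Library 2 is the lowest of the 3 by TPM at 7810.5 and the highest by CPM at 7939, and is the library whose TPM lies on the 3010-base transcript.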

How the data were processed

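The authors sequenced RNA of purified cortical astrocytes after stranded mRNA library preparation, and the 3 libraries titled Cre- control, of 12, were used. Per the file headers, the deposited gene and transcript tables hold counts, FPKM and TPM for each library. The deposited counts are whole numbers per gene, the deposited FPKM values are scaled by length and library size, and the deposited TPM values, the main level here, sum to nearly the same total in each library. Build mm10 and the tools DESeq2, StringTie 1.3.4b, Bowtie2, HISAT, HISAT2 2.1.0 and Trimmomatic appear in the submitters' processing notes, with no role or order. The counting rule and the use of strand are not given in the sources used here, so reads of overlapping and antisense genes cannot be told apart. The columns were read as Cre minus from "cre_M", an abbreviation left unexplained in the labels.

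Mean, SD, coefficient of variation (CV) and rank of TPM were computed with pandas 2.3.3 in Python 3.11.15, and no test was run. Ratios are means of log2 ratios within libraries; an order was taken as beyond the spread where the mean exceeded 2 SD and held in all 3 libraries. TMM factors and the dispersion came from edgeR 4.0.16 in R 4.3.3, and the dispersion was checked on simulated data. With some genes of larger spread included, the common coefficient of variation came back above the value set for the other genes. It was 0.104, 0.14 and 0.216 where 0.05, 0.1 and 0.2 had been set. The fitted value here may likewise lie above the spread of most genes. The group, the 50 gene lists (844 symbols, 0 missing) and the 21 symbol families were chosen with earlier results of these data known.

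The text names the 40 highest genes, list members, the 5 highest of each family, and the 15 most and 15 least variable genes; long non-coding RNAs and transcripts were chosen after their values were seen. For promoters the TATA, GC and CCAAT boxes were planned. The motif TGACGTCA (2.29% of all promoters) and the metal response core (spelled TGCGCNC, 18.9%) were also searched after values were seen. The printed promoters of Msmo1 and Hmgcs1 were chosen after their motif counts were seen, and the printed stretch leaves out the 50 bases after the start. Promoters come from RefSeq, where 26997 of the 45777 genes matched by gene ID. Some members of the lists are not reported here by name.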

Additional observations from a re-analysis of the deposited data

How the results depend on the processing

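The settings tried were TMM-scaled counts, FPKM, the sum of transcripts, the median of libraries, other thresholds, no mitochondrial genes, no filter and each library left out in turn. Of 298 alternative values over 43 results, 271 belong to results with an SD between libraries, and 259 of these moved by less than it. For most of them no other outcome was possible. With 3 libraries, leaving 1 out or taking the median always moves a mean by less than its SD. FPKM scaled to a common total and the sum of transcripts nearly repeat the TPM values. The tally therefore does not measure how stable the results are. Another 24, of counts and medians without an SD, stayed within 1.5 times: the genes at threshold in every library were 18920 at 0.1 TPM and 11623 at 5 TPM, and 887 genes held 50% of TPM without mitochondrial genes (main 603). Without mitochondrially encoded genes the identity markers took 2.18% of TPM (main 1.93%) and ribosomal proteins 2.80% (main 2.48%), and 10 of 208 values of single genes moved, under this setting alone. Removing those genes raises the share of every other gene in itself. The median CV was 23.9% with no filter on low values (main 12.6%). The log2 level of Apoe in library 2 over the other libraries turned from negative in TPM to 0.34 in CPM and 0.39 in TMM-scaled counts per kilobase of 1 length, both tried after the data were seen.

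Leaving out 1 library gave 15299 to 15418 genes at 1 TPM or more in every remaining library, 543 to 646 genes that hold the upper 50% of TPM, 1.85% to 2.05% for identity markers, 0.638% to 0.959% for other cell types, 2.34% to 2.62% for ribosomal proteins, 10.4% to 12.1% for mitochondrial mRNAs and a median CV of 8.98% to 11.7%. A median CV over fewer libraries tends to be lower in itself, so these CVs cannot be compared with that of all 3 libraries. No paired analysis was possible because there is 1 group and no test. The number of libraries limits the precision of every SD.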

Other observations

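Long non-coding RNAs were few but included abundant nuclear species. Malat1, a nuclear speckle RNA, was at 976, 814 and 789 TPM, and Neat1, which builds paraspeckles, at 81.8, 101 and 87.3 TPM. Gm3764 was at 619, 655 and 504 TPM, Pantr1 at 277, 391 and 452 TPM, Gas5 at 163, 155 and 153 TPM and Firre at 100, 116 and 94.2 TPM. These genes were chosen after their values were seen. Together, long non-coding RNAs took 1.09% of TPM and protein-coding genes 97.0%.

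Transcript shares were steady for some genes and not for others. Gfap kept 61.9 ± 1.65% of its TPM on NM_010277, and Mertk 83.2 ± 1.64% on NM_008587. Pkm, which encodes pyruvate kinase, had 53.3%, 53.3% and 93.0% on NM_011099. Psap had 53.1%, 13.7% and 58.2% on NM_011179, with gene levels of 2325, 2526 and 2257 TPM that stayed close. NM_011099 and NM_001253883 of Pkm both have 2432 bases, and the main Psap transcripts have 2648 to 2660. These shares rest on how reads were assigned among transcripts so alike in length, which was not tested. Over 7734 genes with several transcripts and a mean of at least 10 TPM, the same transcript led in all 3 libraries in 5410 genes (70.0%).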
